A study of Mus musculus with 21 samples.

Results

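The 46 genes described here encode the subunits of the proteasome and the helpers named after it, and they were read in the IgA+ plasma cells (PCs) of the mouse small intestine. They were taken by name, as every protein-coding row of the count table called Psm with a letter from a to g and a number, and with 10 or more counts summed over the 21 libraries. This kept 46 of the 48 rows with such a name, out of 20256 genes tested. The other two rows were Psma8, with 7 counts in 3 libraries, and Psmb11, with 5 counts in 2 libraries. Psma8 encodes an alpha subunit of the testis and Psmb11 a catalytic subunit of the thymus.

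The libraries are poly-A RNA-seq of PCs sorted from the lamina propria as CD138+ IgA+ cells. The labels number the samples of a group as replicates and do not say whether each is the PCs of 1 mouse. The study's heatmap legend describes these values as those of individual animals. All mice were C57BL/6 and carried Arntl fl/fl, in which a part of the gene for the clock factor Bmal1 lies between loxP sites. Control mice were Mb1Cre-/- x Arntl fl/fl, with 6 libraries at zeitgeber time 0 (ZT0, lights on) and 6 at ZT12 (lights off). Knockout mice were Mb1Cre+/- x Arntl fl/fl, with 4 libraries at ZT0 and 5 at ZT12. Cre was placed in Mb1 (the gene Cd79a), so deletion reaches the whole B cell lineage and not only PCs, and 1 copy of Cd79a is disrupted in each knockout mouse. The mice were littermates matched for age and sex within each experiment by the study's methods, and no age is given per mouse. By RNA of Xist (female) and the Y-linked Ddx3y (male), every group held libraries of both sexes. No fit included sex. Genotype was read from the sample titles, because in 8 of the 9 samples titled KO the genotype field holds the genotype of the controls. Levels are CPM, read counts scaled to the size of the library. Cd79a was at most 276 CPM in the knockout libraries and at least 386 CPM in the control libraries, with no overlap. Arntl lay between 6.83 and 8.36 CPM in control PCs at ZT0, against 4.00 to 5.56 at ZT12, and between 4.08 and 6.47 and between 3.11 and 4.93 in knockout PCs at the same times. The table counts reads over the whole gene, so reads outside the deleted part remain.

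The proteasome is the protease that takes apart proteins tagged with ubiquitin. Its 20S core is a barrel of alpha rings, which guard the entrance, around beta rings, which hold the active sites. The 19S cap sits on the barrel, binds ubiquitin, removes it and unfolds the substrate with a ring of ATPases. In cells exposed to interferon the active beta subunits Psmb5, Psmb6 and Psmb7 are exchanged for Psmb8, Psmb9 and Psmb10, which makes the immunoproteasome, and the PA28 activator (Psme1 and Psme2) can take the place of the 19S cap. PCs secrete antibody at a high rate and are known to depend on the proteasome, which is why proteasome inhibitors are used against multiple myeloma, a cancer of PCs.

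Promoter sequences from RefSeq (build GRCm38.p6, 250 bases before to 50 bases after the start) were found for 39 of the 46 genes. They are shown for 2 motifs that bear on these data. CACGTG is the E-box that Bmal1 with Clock is known to bind, and TGACNNNGC is the core bound by Nfe2l1 (also called NRF1), the factor that raises proteasome genes when the proteasome is blocked. CACGTG, read on both strands, was present in 4 of the 39 promoters (10.3%) and in 8.09% of the promoters of all 27025 genes in the RefSeq table. The windows of 30 bases around it run 5′ to 3′ on the strand of the gene, with the motif in capitals.
Psma4, chr9:54950707-54950736: ttctgcacagtcCACGTGggcagactgagc
Psmb10, chr8:105938491-105938520: gttcccaacgccCACGTGgtggcacgccca
Psmd9, chr5:123228127-123228156: tcatctgaaaacCACGTGgtctatctagcc
Psme3, chr11:101316157-101316186: ggctgcgcagggCACGTGctcatcctcccc
TGACNNNGC was present in 6 of the 39 promoters (15.4%) and in 14% of all promoters, and no match overlapped a CACGTG. Matches on the opposite strand read GCNNNGTCA.
Psmb5, chr14:54618023-54618052: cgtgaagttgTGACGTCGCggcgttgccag
Psmb6, chr11:70525338-70525367: ctaaagagagTGACGGAGCgctttacgacg
Psmc6, chr14:45329587-45329616: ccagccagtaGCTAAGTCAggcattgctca
Psmd12, chr11:107479278-107479307: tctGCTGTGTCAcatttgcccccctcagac
Psmd9, chr5:123228149-123228178: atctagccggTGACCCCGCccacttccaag
Psme4, chr11:30771758-30771787: cgctgcggctGCAGCGTCAccagaagagcc
CCAAT was present in 13 of the 39 promoters (33.3%, against 41.1% of all), and GAAANNGAA, the core of the interferon response motif, in 7 (17.9%, against 9.76% of all). These shares are a description, and a match of letters is not a binding site. The longest stretch before the start with no annotated exon is given for 2 catalytic genes, Psmb5 with a match to TGACNNNGC and Psmb10 with one to CACGTG, with the matches in capitals. The match of the catalytic Psmb6 also lies before the start and is shown by its window above.
Psmb5 promoter, chr14:54618023-54618245: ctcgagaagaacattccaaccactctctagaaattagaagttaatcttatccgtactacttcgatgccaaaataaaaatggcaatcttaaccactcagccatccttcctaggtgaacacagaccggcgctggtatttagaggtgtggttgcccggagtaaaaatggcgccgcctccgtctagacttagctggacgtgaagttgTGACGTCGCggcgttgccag
Psmb10 promoter, chr8:105938445-105938642: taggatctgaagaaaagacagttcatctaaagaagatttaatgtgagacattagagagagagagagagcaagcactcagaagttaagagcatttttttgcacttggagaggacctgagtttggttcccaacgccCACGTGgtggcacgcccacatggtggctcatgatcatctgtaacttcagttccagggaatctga

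There were 2 libraries that stood apart from the rest in these genes and are named before any comparison. Control ZT12 replicate 2 had a summed level of 2358 CPM over the 46 genes, and knockout ZT0 replicate 3 had 2210 CPM. The other 19 libraries lay between 1708 and 2003 CPM. Control ZT12 replicate 2 was the highest of the 21 libraries for 24 of the 46 genes, and the highest of its own 6 for 31. Knockout ZT0 replicate 3 was the highest of the 21 for 4 and of its own 4 for 30. The same counts were not made over all genes, so they may not be particular to the 46. Immunoglobulin genes took 63.6% of the counts in the first and 59.4% in the second, against a median of 53.7% over the 21 libraries. Control ZT12 replicates 4 and 5 also had raised shares, at 59.5% and 59.1%, and summed levels of 2003 and 1919 CPM. Knockout ZT0 replicate 3 held Xist at 428 CPM, as libraries of female mice do, and also the Y-linked Ddx3y at 20.7 CPM, where libraries of male mice had 87.5 to 114 CPM, so it does not read as RNA of a single male or a single female mouse. Knockout ZT12 replicate 5 held Xist at 344 CPM and Ddx3y at 2.23 CPM. Whether the immunoglobulin share or mixed cells had a part in the high proteasome levels was not tested beyond the fits given with the results.

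**Figure D1:**
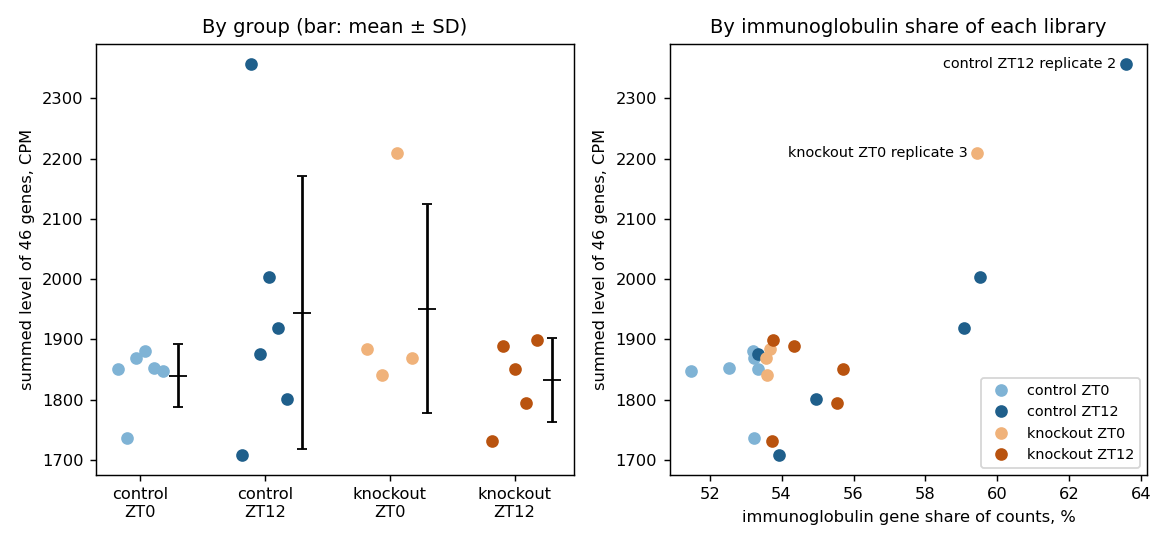
Summed normalized level of the 46 genes in CPM for each library, by group on the left (points are libraries, the bar is the mean ± SD) and against the share of counts from immunoglobulin genes in percent on the right. Control ZT12 replicate 2 at 2358 CPM and knockout ZT0 replicate 3 at 2210 CPM lie above the other libraries, which reach 2003 CPM at most.

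Total counts ran from 14471018 to 22785835 per library, and every gene of the 46 except Psmd10 had at least 40 counts in every library. All CPM values follow TMM normalization, and are per kilobase (kb) of gene length where genes are set against each other. PC markers such as Jchain and Igha summed to 281773 CPM or more in every library. Epithelial markers summed to 867 CPM in control ZT12 replicate 5 and 448 CPM in knockout ZT12 replicate 5, against 52.3 to 222 CPM in the others. T cell markers (10.8 to 28.2 CPM), myeloid markers (13.1 to 77.7 CPM), other B cell markers (12.6 to 27.5 CPM) and markers of cycling cells (26.4 to 197 CPM) were low. The lower end of each of these ranges was control ZT12 replicate 2, which stood apart. Knockout ZT0 replicate 3 had myeloid and other B cell sums of 15.01 and 15.9 CPM, below the medians of 50.7 and 21.6 CPM. Its T cell and cycling sums, 24.01 and 106.5 CPM, lay above the medians of 16.4 and 69.3 CPM. The epithelial sums of these libraries were 112 and 82.3 CPM, against a median of 79.4 CPM. Epcam alone gave 103 and 72.6 CPM of these sums, and the next highest marker, Lgals4, 3.71 and 3.80 CPM. The sums of these libraries are thus mostly Epcam. No gene of these marker lists passed the test in any comparison. The epithelial list had a median log2 change of 2.66 from ZT0 to ZT12 in control PCs and 2.82 in knockout PCs, with 5 of 8 and 1 of 8 markers higher at an unadjusted p under 0.05. With the epithelial marker level as a covariate, or without control ZT12 replicate 5 and knockout ZT12 replicate 5, none of the 46 genes was called in any comparison. In bulk RNA, fewer cells of a type and less RNA per cell cannot be told apart.

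Levels per kb ranged widely over the 46 genes. The beta ring gene Psmb1 was the highest of the 46, at 63.4 CPM per kb over the 21 libraries, followed by Psmb4 at 44.0 and the catalytic Psmb5 at 41.0 CPM per kb. The 7 alpha ring genes lay between 11.1 and 27.8 CPM per kb and the 6 ATPases of the 19S cap between 8.63 and 24.3. In the 19S lid, which holds the deubiquitinase Psmd14, the 8 genes ranged from 5.14 CPM per kb for Psmd11 to 24.5 for Psmd8. The chaperones that assemble the 20S core (Psmg1 to Psmg4) lay between 1.37 and 16.5 CPM per kb, and those that assemble the 19S cap (Psmd5, Psmd9 and Psmd10) between 0.640 and 1.42. Subunits of the same ring, present in equal number in the particle, were thus not at equal RNA levels by the lengths given in the table.

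**Figure D2:**
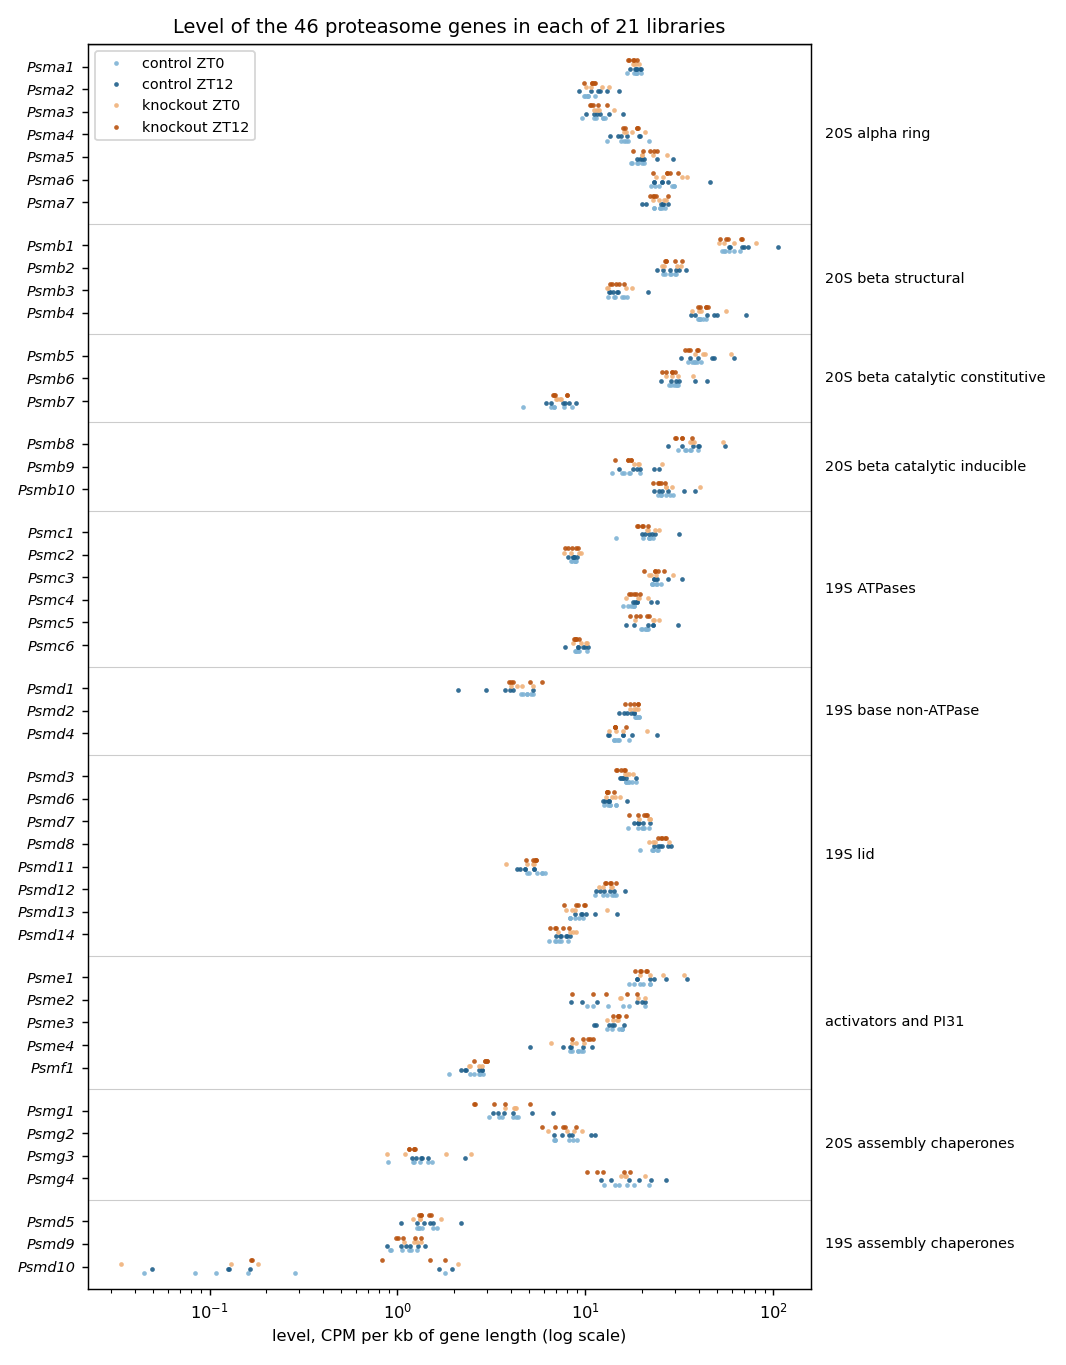
Level of each of the 46 genes in CPM per kb of gene length, on a log scale, with 1 point per library coloured by group and the genes ordered by role. Most genes keep a narrow range over the 21 libraries, and Psmd10 at the foot spreads over both ends of its range in every group.

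Among the catalytic subunits the constitutive and the inducible genes were at like summed levels per kb, which rests on the lengths given in the table. Without division by length, each inducible gene had the higher mean of its pair. Psmb8 was at 100 CPM against 36.8 for Psmb5, Psmb9 at 66.9 against 57.1 for Psmb6, and Psmb10 at 46.9 against 24.7 for Psmb7. Psmb8, Psmb9 and Psmb10 together made up 51.2% ± 1.46 (SD, n = 21) of the summed level per kb of the 6 catalytic genes, with 48.7% in the lowest library and 54.1% in the highest. The mean share was 51.1% ± 1.01 (SD, n = 6) in control PCs at ZT0 and 50.9% ± 1.91 (SD, n = 6) at ZT12, and 52.3% ± 1.67 (SD, n = 4) and 50.6% ± 1.02 (SD, n = 5) in knockout PCs, so the groups overlapped. Pair by pair the balance differed. Per kb, Psmb8 stood at 0.898 ± 0.0665 (SD, n = 21) of Psmb5, Psmb9 at 0.600 ± 0.0640 of Psmb6, and Psmb10 at 3.87 ± 0.731 times Psmb7. The last 2 ratios and the share are uncertain where reads were not told apart by strand, because Psmb9 overlaps Tap1 (37551 counts to its 23197) and Psmb7 overlaps Nek6 (4399 counts to its 8579), both on the other strand.

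Of the activators, Psme1 was at 22.1 and Psme2 at 15.03 CPM per kb. The ratio of Psme1 to Psme2 per kb ran from 1.06 to 2.31 over the 21 libraries, the widest relative range of the pairs computed here. Psme2 itself ran from 14.8 to 36.8 CPM, with both ends of this range in control PCs at ZT12. It has a near-identical copy, Psme2b, with 73 counts in all, and reads could be split between them. Psme3, the nuclear activator PA28 gamma, was at 14.3, Psme4, which encodes PA200, at 8.95, and Psmf1, which encodes the regulator PI31, at 2.62 CPM per kb.

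The first comparison asks whether the RNA of the proteasome genes in control PCs differed between ZT0 and ZT12. None of the 46 genes passed the test (edgeR quasi-likelihood, Benjamini-Hochberg over 20256 genes, adjusted p under 0.05), where 1.73% of all genes tested did. The smallest adjusted p among the 46 was 0.151. DESeq2 called none of the 46 either. Without adjustment, 8 genes of the 46 had p under 0.05 with higher and 3 with lower RNA at ZT12, or 17.4% and 6.52%, against 9.19% and 8.86% of all genes. Among genes over 3 CPM, to which 45 of the 46 belong, the shares were 17.8% and 6.67% against 12.8% and 13.6%. The fitted change was above 0 for 34 of the 46, against 50.6% of all genes, and its median was 0.10 on the log2 scale against 0.01 over all genes. Leaving Psmd10 aside, no gene lay outside −0.41 to 0.32.

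The higher side leaned on 1 library. Without control ZT12 replicate 2, the unadjusted count went from 8 higher and 3 lower to 0 higher and 1 lower, and the median change from 0.10 to 0.02. With both libraries that stood apart left out, 0 were higher and 3 lower (Psmd1, Psmd11 and Psmd2). Both libraries were picked for their summed level of the same genes. A lower count on the higher side without control ZT12 replicate 2 thus follows from the choice. This limit also holds for the Psmb1 fit below, and for the knockout and genotype comparisons without either library. Over the other libraries left out 1 at a time, the higher count ran from 3 (without control ZT0 replicate 2 or control ZT12 replicate 4) to 11 (without control ZT12 replicate 1 or 6). By library size only, the median of all genes moved by −0.21 and the unadjusted count became 0 higher and 12 lower. Relative to all genes the direction was kept, with the 46 at a median 0.08 above that of all genes and 31 of the 46 above it. With the immunoglobulin share as a covariate the count was 0 higher and 1 lower, and the median was −0.09.

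Psmb1, a structural subunit of the beta ring, had the smallest p on the higher side. In control PCs it lay between 55.3 and 68.5 CPM at ZT0, with a median of 58.6, and between 59.9 and 110 CPM at ZT12, with a median of 71.4. The groups overlapped, and 110 CPM was control ZT12 replicate 2. The log2 change was 0.32 ± 0.13 (SE) with an adjusted p of 0.192 by edgeR, and 0.17 ± 0.09 with both libraries that stood apart left out. Psmb9, the inducible subunit that takes the place of Psmb6, lay between 50.5 and 71.5 CPM at ZT0 (median 60.2) and between 55.5 and 90.5 at ZT12 (median 70.2), with a log2 change of 0.27 ± 0.11 and an adjusted p of 0.200. Tap1, the gene that overlaps Psmb9, encodes a subunit of the peptide transporter. Psmc4, an ATPase of the 19S base, lay between 34.3 and 39.4 CPM at ZT0 and between 38.8 and 51.7 at ZT12. Its log2 change was 0.21 ± 0.09 (adjusted p 0.203), and the ranges met only between 38.8 and 39.4 CPM.

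The genes on the lower side were subunits of the 19S cap. So were Psmc4, Psmd8 (0.18 ± 0.08) and Psmd13 (0.28 ± 0.12) on the higher side, so the sides do not split by core and cap. Psmd1, the large scaffold of the 19S base that holds ubiquitin receptors, lay between 33.0 and 38.3 CPM at ZT0 (median 35.7) and between 15.2 and 38.1 at ZT12 (median 27.9). At ZT12 5 of the 6 libraries lay below every ZT0 library, and the sixth, replicate 6 at 38.1 CPM, lay among the highest of them. The log2 change was −0.41 ± 0.15 with an adjusted p of 0.151. Without control ZT12 replicate 6 the change was −0.53 and Psmd1 passed the test (adjusted p 0.0315), and over all alternatives its adjusted p ran from 0.0315 to 0.920. Psmd11, a lid subunit, lay between 31.4 and 38.8 CPM at ZT0 and between 27.6 and 34.2 at ZT12, with a log2 change of −0.20 ± 0.09 (adjusted p 0.236). Psmd2, the other scaffold of the base, lay between 74.5 and 78.0 CPM at ZT0 and between 61.0 and 73.6 at ZT12, with no overlap. Its log2 change was −0.15 ± 0.07 (adjusted p 0.261), a small shift for a gene with a tight spread.

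**Figure D3:**
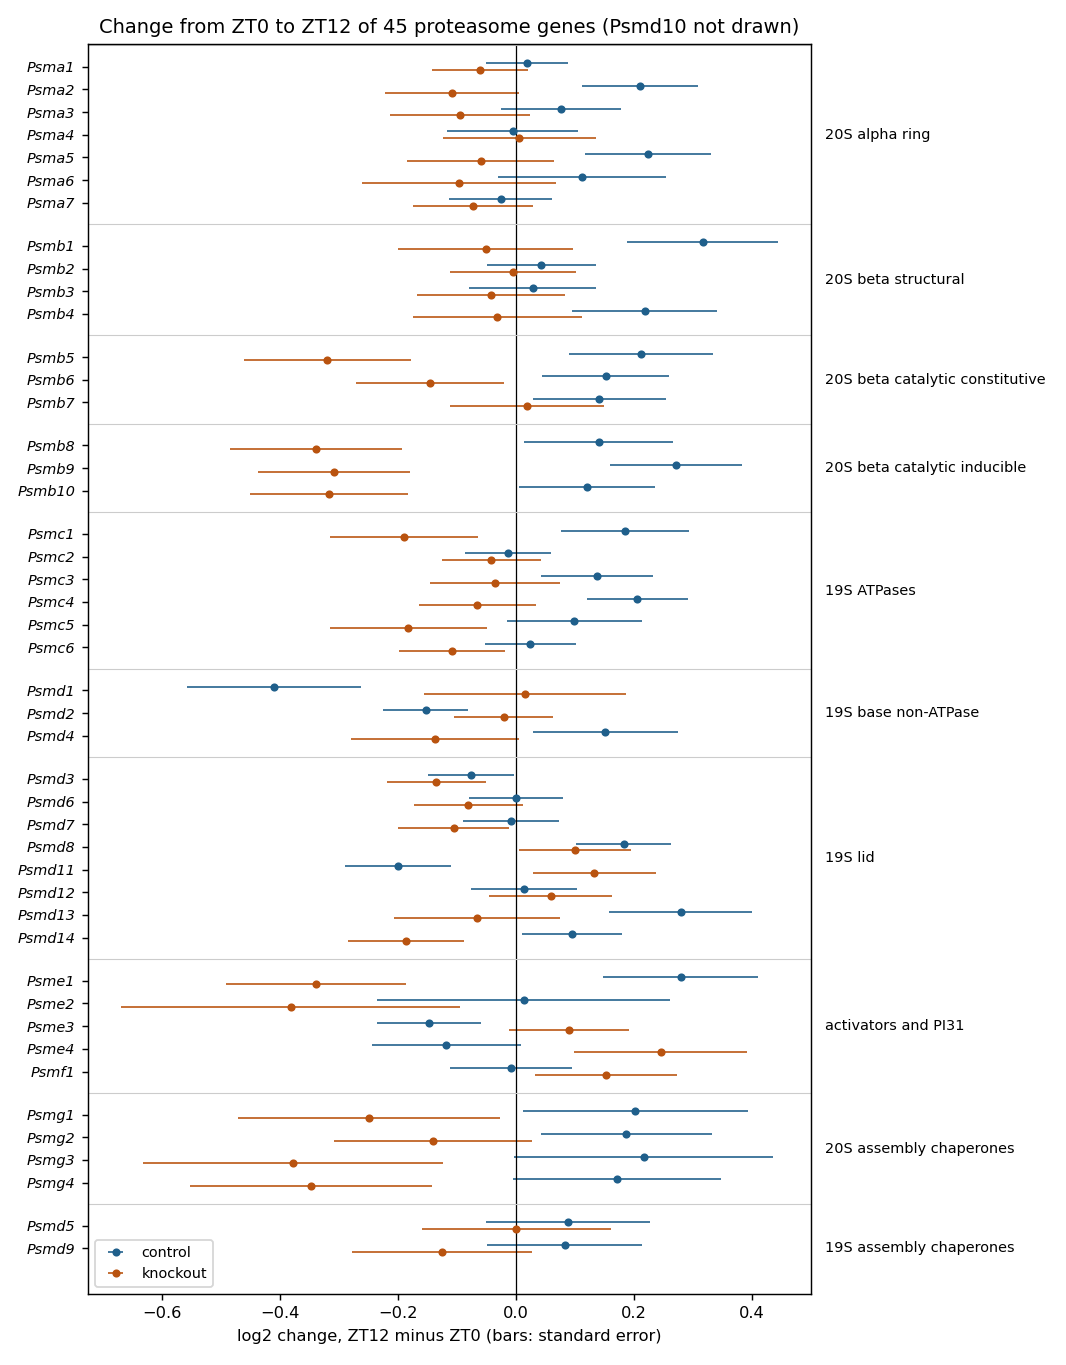
Log2 change from ZT0 to ZT12 of 45 of the genes, ordered by role, in control (blue) and knockout (orange) PCs, with standard errors. No single change passed the test in either genotype. Psmd10 is left out because its standard error is over 1.

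By role, the control changes were as follows. All 3 constitutive and all 3 inducible catalytic genes had a fitted change above 0, with medians of 0.15 and 0.14. All 4 structural beta genes (median 0.13), all 4 core chaperones (median 0.19), 5 of 7 alpha genes (median 0.08) and 5 of 6 ATPases (median 0.12) were also above 0. Of the 3 genes of the 19S base that are not ATPases, the scaffolds Psmd1 and Psmd2 were below 0 and the ubiquitin receptor Psmd4 was above it, at 0.15. In the lid 4 of 8 were above 0 (median 0.01) and among the activators and PI31 2 of 5 (median −0.01). Shorter genes tended to have a higher fitted change. Across the 46 genes the change and the gene length had a Spearman rho of −0.52, and across 6935 well expressed genes the same rho was −0.43. For the interaction difference the rho was 0.55 across the 46 genes and 0.45 across the 6935. The 46 genes are shorter than those, with a median length of 2768 against 4685 bases. The genes share their libraries, so the rho is a description. With a length trend removed from each library, the count of unadjusted p under 0.05 was 3 higher and 3 lower, and the median change was −0.0011.

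In knockout PCs the same comparison of ZT12 with ZT0 gave no gene past the test among the 46, and 0% of all genes were called. DESeq2 called none of the 46. Without adjustment 0 of the 46 were higher and 5 lower (10.9%), against 3.91% and 4.09% of all genes. The 5 were the catalytic Psmb5, Psmb8, Psmb9 and Psmb10 and the activator Psme1, and their smallest adjusted p was 0.613. Among genes over 3 CPM, to which 45 of the 46 belong, the higher and lower shares were 0% and 11.1% against 4.34% and 5.04%. The change was above 0 for 11 of the 46, against 50.7% of all genes, with a median of −0.08. Without knockout ZT0 replicate 3, 0 were higher and 0 lower and the median was −0.03, and over the other libraries left out 1 at a time the lower count ran from 1 (without knockout ZT12 replicate 3) to 7.

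The question of the design is whether the change from ZT0 to ZT12 differed between the genotypes, which is the interaction of time and genotype. It was tested directly, and 0% of all genes and none of the 46 passed by edgeR. DESeq2 called 3 genes in all and none of the 46. Without adjustment, 9 of the 46 had a lower change in knockout than in control PCs and 1 a higher change (19.6% and 2.17%), against 5.63% and 5.18% of all genes. The 9 were Psmb5, Psmb8, Psmb9, Psmb10, Psme1, Psma2, Psmc1, Psmc4 and Psmd14, and the 1 was Psmd11. Among genes over 3 CPM, to which 45 of the 46 belong, the lower and higher shares were 20% and 2.22% against 7.42% and 7.48%. The difference was above 0 for 8 of the 46, against 51.1% of all genes, with a median of −0.21 against 0.01. Without control ZT12 replicate 2 the counts were 6 lower and 1 higher and without knockout ZT0 replicate 3 they were 3 and 0. With both left out the counts were 2 lower (Psmb9 and Psme1) and 0 higher, and the median was −0.04. These libraries were chosen for their summed level of the same genes, 1 in control PCs at ZT12 and 1 in knockout PCs at ZT0, so a difference nearer to 0 without them follows from the choice, here and for each gene below. Leaving out 1 of the other libraries gave 6 to 12 lower, with 12 lower and 4 higher without control ZT12 replicate 6. With the immunoglobulin share as a covariate 0 were lower and 0 higher, by library size only 2 were lower and 1 higher, and with the length trend removed 4 were lower and 0 higher. The immunoglobulin share itself differed between ZT0 and ZT12 in control PCs, so the fit with it may take out part of the difference tested.

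Psmb9 had the smallest p of the 46 in the interaction. In knockout PCs it was at 66.2, 70.1, 93.8 and 70.6 CPM in the ZT0 replicates 1 to 4 and at 52.8, 63.9, 63.9, 61.3 and 61.6 CPM in the ZT12 replicates 1 to 5. All ZT12 values lay below all ZT0 values in the knockout, where the control ranges overlapped. The knockout change was −0.31 ± 0.13 and the difference from the control change −0.58 ± 0.17 (adjusted p 0.442). With both libraries that stood apart left out, the difference was −0.38 ± 0.15 (adjusted p 0.934), and over all alternatives the adjusted p ran from 0.239 to 1.

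Psme1, the alpha subunit of PA28, showed a like pattern. In control PCs it lay between 37.6 and 48.6 CPM at ZT0 (median 43.8) and between 41.6 and 76.3 at ZT12 (median 49.8). In knockout PCs it was at 57.0, 43.2, 73.8 and 48.9 CPM at ZT0 and at 43.1, 46.7, 43.8, 40.4 and 46.2 CPM at ZT12. The ranges overlapped in both genotypes, and the highest value of each genotype came from the library that stood apart. The control change was 0.28 ± 0.13, the knockout change −0.34 ± 0.15 and their difference −0.62 ± 0.20 (adjusted p 0.442). With both libraries left out the difference was −0.32 ± 0.15.

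Psmb5, the catalytic subunit that proteasome inhibitors block, had the third smallest p. In control PCs it lay between 31.7 and 36.9 CPM at ZT0 (median 34.1) and between 29.0 and 55.2 at ZT12 (median 39.03). In knockout PCs it was at 38.1, 34.3, 53.7 and 38.8 CPM at ZT0 and at 32.3, 35.5, 30.5, 31.5 and 35.2 CPM at ZT12. At ZT0 in the knockout 3 of the 4 values lay above all the ZT12 values. The control change was 0.21 ± 0.12, the knockout change −0.32 ± 0.14 and their difference −0.53 ± 0.19 (adjusted p 0.442), or −0.26 ± 0.14 with both libraries left out.

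The other inducible subunits had knockout changes of like size. Psmb8, which takes the place of Psmb5, was at 101, 103, 148 and 98.4 CPM at ZT0 and at 89.1, 101, 82.0, 83.4 and 89.3 CPM at ZT12, with a knockout change of −0.34 ± 0.15 and ranges that overlapped. Psmb10, which takes the place of Psmb7, was at 45.7, 45.9, 69.6 and 49.0 CPM at ZT0 and at 45.1, 41.7, 39.2, 42.0 and 42.8 CPM at ZT12, with no overlap and a change of −0.32 ± 0.13. Their differences from the control change were −0.48 ± 0.19 and −0.44 ± 0.18 (adjusted p 0.442 for both), and −0.19 ± 0.14 and −0.17 ± 0.14 with both libraries left out. The constitutive Psmb6 and Psmb7 had interaction differences of −0.30 ± 0.17 and −0.12 ± 0.17. No test was run between genes, so the order of these differences is not a result.

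**Figure D4:**
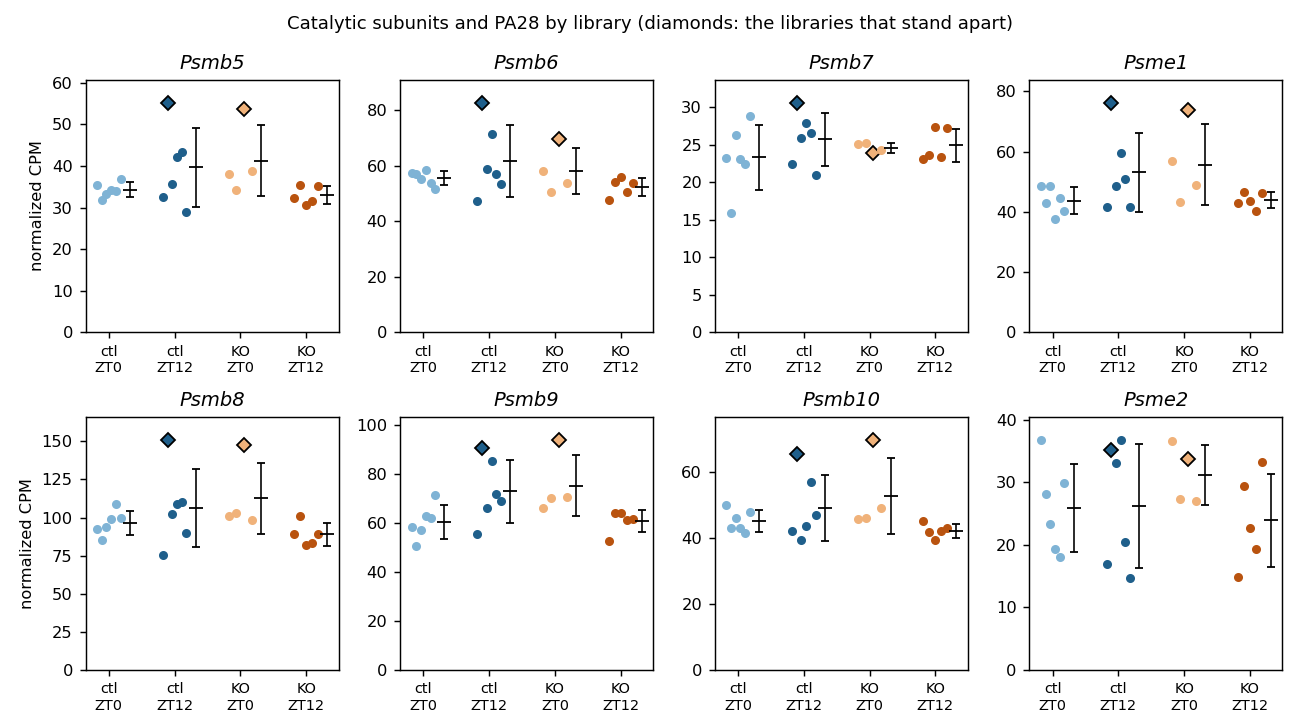
Normalized CPM of the 6 catalytic genes and of Psme1 and Psme2 in each library, for control (ctl) and knockout (KO) PCs at ZT0 and ZT12, with the mean ± SD beside the points. Diamonds are control ZT12 replicate 2 and knockout ZT0 replicate 3, which both give the highest value of their group in all panels except those of Psmb7 and Psme2. For Psmb7 control ZT12 replicate 2 was the highest of its group (30.6 CPM) and knockout ZT0 replicate 3 the lowest (23.9 CPM). For Psme2 neither was the highest.

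Psmd1, Psmd11 and Psmd2, lower at ZT12 in control PCs by their fitted change, had interaction differences of 0.43 ± 0.23, 0.33 ± 0.14 and 0.13 ± 0.11, with adjusted p of 0.487, 0.442 and 0.669. The differences of Psmb1 and Psmc4 were −0.37 ± 0.20 and −0.27 ± 0.13 (adjusted p 0.485 and 0.461). Among the remaining activators Psme3 was at −0.15 ± 0.09 in control PCs and 0.09 ± 0.10 in knockout PCs, Psme4 at −0.12 ± 0.13 and 0.25 ± 0.15, Psme2 at 0.01 ± 0.25 and −0.38 ± 0.29, and Psmf1 at −0.01 ± 0.10 and 0.15 ± 0.12. Psme3 and Psme4 thus had the sign opposite to Psme1 in both genotypes, without passing the test. The 4 core chaperones Psmg1 to Psmg4, all above 0 in control PCs, were all below 0 in knockout PCs (median −0.30), with interaction differences from −0.59 to −0.33 and none at an unadjusted p under 0.05.

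The genes with a CACGTG in the promoter shown above are described together, with no test of them as a set. The promoter used for Psmd9 lies inside the counted gene, which starts at chr5:123169413. The control changes were −0.01 ± 0.11 for Psma4, 0.12 ± 0.12 for Psmb10, 0.08 ± 0.13 for Psmd9, a chaperone of the 19S cap, and −0.15 ± 0.09 for Psme3. The interaction differences were 0.01 ± 0.17, −0.44 ± 0.18, −0.21 ± 0.20 and 0.24 ± 0.14. Their signs were mixed in both, and none passed the test. Whether the motif had a part in any change was not tested.

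The last comparisons set knockout against control PCs at the same time. At ZT0, none of the 46 passed the test and 0.00987% of all genes did, where 4 of the 46 were higher and 0 lower at an unadjusted p under 0.05, against 2.66% and 2.24% of all genes. The 4 were Psma5, Psmb9, Psmd14 and Psme1, the smallest adjusted p was 0.926, and the median difference was 0.08. Among genes over 3 CPM the higher and lower shares at ZT0 were 8.89% and 0% against 2.71% and 2.08%. Without knockout ZT0 replicate 3 no gene of the 46 had an unadjusted p under 0.05 and the median was 0.0044, and with the immunoglobulin share as a covariate none had and the median was 0.00037. The share at ZT0 had a mean of 55.1% ± 2.91 (SD, n = 4) in knockout and 52.8% ± 0.721 (SD, n = 6) in control PCs. The fit with the share thus cannot tell genotype from share here. Over the other libraries left out 1 at a time the higher count ran from 1 (without control ZT0 replicate 4) to 5. At ZT12, none of the 46 passed the test and 0.0148% of all genes did. There 2 of the 46 were higher (Psmd1 and Psme4) and 4 lower (Psmb5, Psmb6, Psmb9 and Psmg4) without adjustment, against 4.25% and 4.58% of all genes, with a smallest adjusted p of 0.562 and a median of −0.08. Among genes over 3 CPM the higher and lower shares at ZT12 were 4.44% and 8.89% against 5.72% and 5.38%. Without control ZT12 replicate 2 none had an unadjusted p under 0.05, where without control ZT12 replicate 1 there were 1 higher and 12 lower and without replicate 6 there were 3 higher and 9 lower. Without knockout ZT12 replicate 1 there were 1 higher and 0 lower. DESeq2 called none of the 46 at either time. These comparisons share their libraries with the time comparisons, and the same values enter both.

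Psmd10, which encodes the 19S chaperone gankyrin and lies on the X chromosome, was singled out after its values were seen. In 7 libraries it was at 1.21 to 3.08 CPM (18 to 56 counts) and in the other 14 at 0.0497 to 0.417 CPM (1 to 8 counts), with no library between. The high libraries were control ZT0 replicate 5, control ZT12 replicates 1 and 2, knockout ZT0 replicate 1, and knockout ZT12 replicates 3, 4 and 5, so each group held both kinds. Of the 7 libraries 4 had high Xist, and of the 14 libraries 6. The log2 change in control PCs was 0.75 ± 1.08, which leaves no level of change shown.

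**Figure D5:**
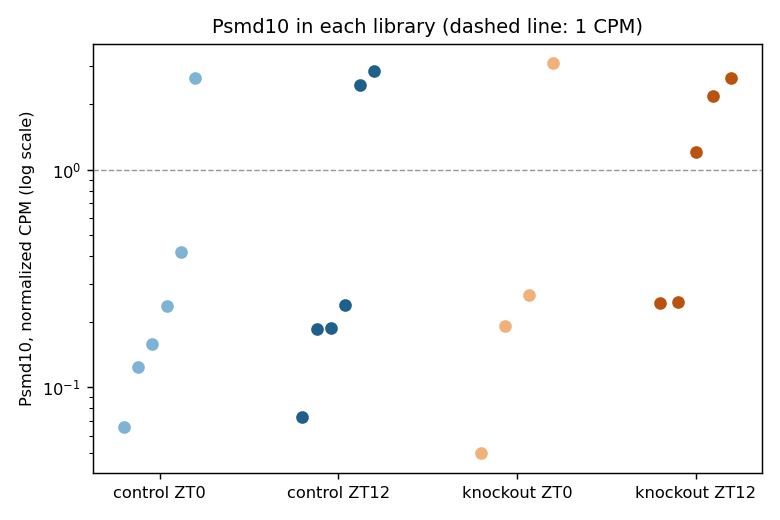
Psmd10 in normalized CPM on a log scale, with 1 point per library in each of the 4 groups. The dashed line at 1 CPM lies in the gap between 0.417 and 1.21 CPM, and every group has libraries on both sides.

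Genes that work with the proteasome were counted from a list of 33, of which 29 were tested. In control PCs 1 was called and was higher at ZT12, and at an unadjusted p under 0.05 there were 2 higher and 4 lower, where 1.73% of all genes were called and 9.19% and 8.86% were higher and lower without adjustment. The gene called was Ufd1, which brings ubiquitin-tagged proteins to the p97 ATPase for removal from the endoplasmic reticulum. It lay between 26.0 and 33.1 CPM at ZT0 and between 32.5 and 45.8 at ZT12, with a log2 change of 0.33 ± 0.09 (edgeR adjusted p 0.0479). The ranges met between 32.5 and 33.1 CPM, and 45.8 CPM was control ZT12 replicate 2, which stood apart. Ufd1 lay close to the threshold, and it was not followed through the alternatives. Pomp, the maturation factor of the 20S core, had a control change of 0.16 ± 0.11 and an interaction difference of −0.39 ± 0.18 (adjusted p 0.451). The ubiquitin receptor Adrm1 was at −0.07 ± 0.07, and the factors Nfe2l1 and Nfe2l2 were at −0.16 ± 0.11 and −0.07 ± 0.10. Of 26 genes of the interferon response and antigen processing, 0 were called in any comparison, with 2 higher and 4 lower in control PCs and 0 higher and 5 lower in the interaction at an unadjusted p under 0.05. In the interaction 5.18% of all genes were higher and 5.63% lower at that p. No gene of either list was called in any of the other 4 comparisons.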

How the data were processed

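RNA of sorted CD138+ IgA+ PCs was sequenced as 21 poly-A libraries (NEB Next Ultra, NovaSeq, paired ends). The table the authors deposited holds whole-number read counts for each gene, not normalized. The aligner, the counter, the strand setting and the genome build are not given in the sources used here, so overlapping genes are uncertain: 19 of the 46 genes overlap another tested gene, and in 5 (Psmb9, Psmc3, Psma2, Psmd13 and Psmb7) that gene has over 10% of their counts. The coordinates are those of GRCm38. The authors' own tests used DESeq2 with its defaults, per the labels and the methods.

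Genes with at least 10 counts in total were kept. TMM factors were computed and edgeR 4.0.16 (limma 3.58.1, R 4.3.3) was used to fit the 4 groups by robust quasi-likelihood, with 5 comparisons and p-values adjusted by Benjamini-Hochberg over 20256 genes, called under 0.05. The fit was tested on simulated data. Standard errors come from the same test. CPM values use the TMM factors, and p-values measure only the spread between these libraries, which the study describes as individual animals. This spread may hold technical variation as well. All 46 pairs of libraries within groups differed by more than sampling noise.

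Alternatives were DESeq2 1.42.0, its size factors, library size only, immunoglobulin genes removed, no count filter, filterByExpr, a threshold of 0.01, only the groups compared, the replicate number as a block, covariates for the immunoglobulin share and epithelial markers, a length trend removed (lowess span 0.5), and each library left out. Leaving out both libraries that stood apart, leaving out both with raised epithelial RNA, and DESeq2 on the groups compared were chosen after seeing the data.

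The 46 genes and the lists were chosen with earlier results of these data known. Described with full values are the 3 of lowest p on each side in control PCs and the 3 of lowest p in the interaction. The catalytic genes, the activators and Psmf1 were named for their role, as were Pomp, Nfe2l1, Nfe2l2 and Adrm1. Psmd10, and the genes listed for an unadjusted p or a promoter motif, were named after their values were seen. Protein sequences were not used here.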

Additional observations from a re-analysis of the deposited data

Results flagged for a closer look

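Single libraries far from the rest of their group were looked for in 16 named genes over 4 groups. The measure was the ratio of the gap to the group's range. Of 64 such checks 6 passed, where chance passes about 5% of them. The checks share libraries, and some genes were named for a low p, so this count is not a test. Control ZT12 replicate 2 was the highest of its group for Psmb1, at 110 CPM against 76.0 for the next library. Knockout ZT0 replicate 3 was the highest of its group for the 3 inducible catalytic subunits, with Psmb8 at 148 CPM against 103, Psmb9 at 93.8 CPM against 70.6 and Psmb10 at 69.6 CPM against 49.0. These libraries were already named for the highest summed level of the 46 genes. That sum includes the genes flagged here, so the match is not a separate result. A pair of low values was found in knockout PCs at ZT12, where Psmb9 was at 52.8 CPM in replicate 1 against 61.3 for the next library, and Psmf1 was at 16.4 CPM in replicate 5 against 18.8.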

How the results depend on the processing

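The count of 0 called genes among the 46 held in every alternative for the knockout change, the interaction and both genotype comparisons. For the control change it was 0 to 1 over the fits that left out 1 library, the 1 being Psmd1 (−0.53) without control ZT12 replicate 6, and 0 otherwise. The median change of the 46 genes kept its sign in 32 of 35 alternatives for the control change, 31 of 33 for the interaction, 33 of 35 for the genotype difference at ZT12 and 35 of 35 for the knockout change and the genotype difference at ZT0, where it fell to 0.00037 with the immunoglobulin share as a covariate. By library size only it was −0.12 in the control change, 0.0061 in the interaction and 0.052 at ZT12 between genotypes, where the median of all genes moved by −0.21, 0.18 and 0.13. With the immunoglobulin share as a covariate it was −0.092 in the control change and 0.0026 in the interaction. The share differed with time in control PCs and with genotype at ZT0, so the fit with it cannot tell these apart. The interaction median was −0.074 with the length trend removed and −0.044 with both libraries that stood apart left out. Leaving out 1 library at a time, the medians ran from 0.02 to 0.16 in the control change, from −0.13 to −0.03 in the knockout change, from −0.26 to −0.11 in the interaction, from 0.0044 to 0.12 at ZT0 and from −0.12 to −0.04 at ZT12. Single genes changed sign in the control change by library size only (Psmc4 −0.021, Psmb5 −0.033, Psmb8 −0.10, Psmb10 −0.12). Each of these lay above the median of all genes there, −0.20. With the immunoglobulin covariate the sign changed for Psmb1 (−0.032), Psme1 (−0.10), Psmb5 (−0.14), Psmb8 (−0.20) and Psmb10 (−0.19), and for Psmb1 in the interaction (0.030). With the length trend removed it changed for Psmb5 (−0.10) and Psmb10 (−0.048) in the control change. The cause of these sign changes was not tested.

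Replicate numbers did not pair the samples: deviations of same-numbered libraries correlated at −0.31 to 0.35, with 7 of 28 pairs over 0.1, and 4 of 21 libraries correlated best with their own number. With the replicate number as a block, 0 of the 46 were called in each comparison, the medians were 0.09, −0.08, −0.19, 0.04 and −0.10 in the order control change, knockout change, interaction, ZT0 and ZT12, and 183 genes in place of 350 were called in the control change. DESeq2 called 1073 genes in all there, filterByExpr 460, the fit on the groups compared 38, and the threshold of 0.01 14. A count of reads per gene limits Psmd10, with 8 counts or fewer in 14 libraries.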
